A study of Mus musculus with 12 samples.

Results

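The genes described here encode the cytosolic ribosomal proteins, the proteins that form the ribosome together with the ribosomal RNAs. They were taken from the table by name: protein-coding genes called Rpl or Rps followed by a number, with Rplp0, Rplp1, Rplp2 and Rpsa added and the S6 kinase genes left out. This gave 83 of 54532 genes, 51 with large-subunit and 32 with small-subunit names. RNA with poly(A) tails was sequenced from whole hippocampi of C57BL/6J mouse pups on postnatal day 15. LPS (lipopolysaccharide, a bacterial cell wall component that activates innate immunity) or saline was injected under the skin on day 3. On day 14, 24 h before tissue was taken, a second injection of either was made into the abdomen. The LPS dose was 5 mg/kg. Groups are named by the order of the injections: SS received saline on both days, SL saline then LPS, LS LPS then saline, and LL LPS on both days, with 3 animals in each. The labels name no engineered allele. The libraries held 16979666 to 24105022 fragments assigned to genes.

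A ribosome has a small subunit, which reads the mRNA, and a large subunit, which joins the amino acids. Each carries its own set of proteins in near-equal numbers, so cells make the mRNAs of these proteins at matched, high levels. Most of these mRNAs begin with a C followed by a run of pyrimidines, the terminal oligopyrimidine (TOP) element, through which the kinase mTOR and the protein LARP1 set how strongly they are translated. That control acts on translation, which was not measured here. A few family members have paralogs that are restricted to certain tissues or induced by stress, and some proteins, such as Rpl5 and Rpl11, also bind the p53 regulator Mdm2 when ribosome assembly is disturbed. Genes for these proteins have left many processed pseudogenes in mammalian genomes, which makes short reads hard to assign.

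A pyrimidine run near the start site was found in some of the members examined, and the TOP element as defined above at the annotated start in fewer. RefSeq start-site sequences (GRCm38.p6) were found for 63 of the 83 genes. A run of at least 8 letters C or T was counted if any part of it lay within 10 bases of the start. Read on the gene's own strand, such a run was present in 27 of the 63 (42.9%), against 13.9% of 10792 other tested protein-coding genes and 13.9% of all 27025 promoters. A start base C followed by at least 4 pyrimidines was present in 12 (19.0%), against 2.23% of the other tested genes. A stretch of 8 pyrimidines lying wholly within 50 bases of the start was present in 50 of the 63 (79.4%), against 31.9%. The starts are annotated ones and were not mapped in this tissue, so these shares do not count the mRNAs that lack the element. The TATAAA motif, searched from 40 to 16 bases before the start, was present in 1 (1.59%) against 1.251%. The stretches below run from 40 bases before to 20 bases from the start, so that the start is base 41. In them, capitals mark the longest pyrimidine run with any part within 10 bases of the start, where it has 8 letters or more. Runs farther from the start, as in Rpl22 and Rps27l, are left in lower case. They are shown for the genes whose values the results turn on. They lie at chr4:86857348-86857407 (Rps6, minus strand), chrX:74270776-74270835 (Rpl10, plus), chr3:90213629-90213688 (Rps27, minus), chr9:66946046-66946105 (Rps27l, plus), chr11:114668540-114668599 (Rpl38, plus), chr4:152325686-152325745 (Rpl22, plus) and chr3:28805468-28805527 (Rpl22l1, plus).
Rps6: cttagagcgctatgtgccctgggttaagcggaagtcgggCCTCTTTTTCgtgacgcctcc
Rpl10: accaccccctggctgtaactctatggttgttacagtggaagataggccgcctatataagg
Rps27: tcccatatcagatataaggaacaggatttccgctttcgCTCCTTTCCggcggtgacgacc
Rps27l: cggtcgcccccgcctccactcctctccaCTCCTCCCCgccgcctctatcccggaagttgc
Rpl38: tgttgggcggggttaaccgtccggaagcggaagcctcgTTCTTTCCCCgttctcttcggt
Rpl22: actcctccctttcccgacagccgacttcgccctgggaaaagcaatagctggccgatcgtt
Rpl22l1: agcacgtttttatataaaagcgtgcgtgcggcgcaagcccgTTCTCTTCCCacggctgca
The run lies across the annotated start in Rps6, Rps27 and Rpl38, begins just after it in Rpl22l1 and ends before it in Rps27l. Rpl10 and Rpl22 have no run of that length within 10 bases of the RefSeq start.

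Ribosomal protein mRNAs held 2.40% to 2.84% of the summed FPKM and 1.03% to 1.24% of the assigned fragments over the 12 libraries. Levels are given as FPKM, the fragments per kilobase of exon after scaling for library size. The 83 genes together held 2.40%, 2.72% and 2.40% of all FPKM in the SS libraries, a mean of 2.51% ± 0.18 (SD, n = 3). For SL the mean was 2.61% ± 0.21, for LS 2.55% ± 0.08 and for LL 2.68% ± 0.14. The ranges of all 4 groups overlapped, and no test was made on the sum. The summed level of the 51 large-subunit genes was 1.44 to 1.54 times that of the 32 small-subunit genes over the 12 libraries. This compares sums over unequal numbers of genes and is not a ratio per gene. In whole tissue, fewer cells of a type and less RNA per cell cannot be told apart.

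**Figure D1:**
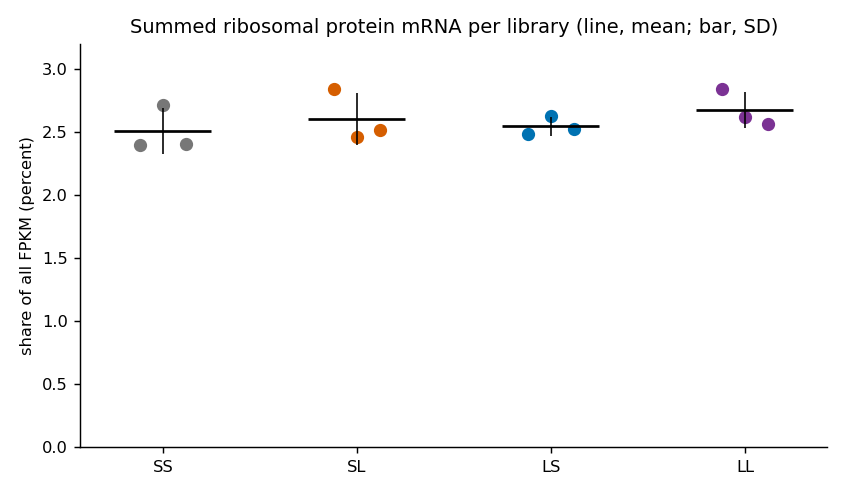
Share of all FPKM, in percent, held by the 83 ribosomal protein genes in each of 12 hippocampal libraries, by group (points, libraries; line, mean; bar, SD). Group means lay between 2.51% and 2.68%, and the points of the groups overlap.

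Among the members, Rplp1, an acidic protein of the ribosomal stalk, had the highest level, a mean of 628.6 FPKM over the 12 libraries (557.7 to 695.9). Rps15 and Rps2, both of the small subunit, followed at 285.5 and 266.1 FPKM. Of the 81 genes that could be tested, 65 lay within 3-fold of their median of 68.0 FPKM. FPKM here divides by the length of all exons of a gene, which was 2.34 times the length of the principal mRNA in the median member. Per kilobase of principal mRNA, 67 of 81 lay within 3-fold of the median. The lowest tested levels were in Rpl3l (0.407 FPKM), a paralog of Rpl3 known from striated muscle, and in Rpl24 and Rps10 (1.37 and 1.63 FPKM). Rps10 and Rpl24 encode proteins that every ribosome carries. Of 100-base windows of their principal mRNAs, 89.5% in Rps10 and 80.1% in Rpl24 were also found in another gene. The pseudogene Rps10-ps2 was listed at 64.2 FPKM, while Gm9385, which shares windows with Rpl24, was at 6.13 FPKM. Rpl5 and Rpl10a shared 91.1% and 87.1% of their windows and were at 47.2 and 55.4 FPKM. Rps10 overlaps RPS10-NUDT3 and Rpl24 overlaps Gm28037, each on the same strand. The part of shared windows and overlaps in the low levels was not tested. The 2 genes not tested, at under 0.5 FPKM, were the testis-expressed paralogs Rpl10l, listed at 0 in all 12 libraries, and Rpl39l, at a mean of 0.0677 FPKM.

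Most of the family shared stretches of exact sequence with other genes. Of the 83 genes, 74 shared at least 1 window of 100 bases with another gene, and 36 shared more than 50% of their windows. Any other gene on either strand counted, so 74 is not a count of members with near-identical copies. For Rplp2 the only sharing gene was Wdr89. A total of 439 pseudogenes and retrocopies in the table shared a window with 72 of the members. These copies held between 7.58% and 8.45% of the fragments of members and copies together. The sources used here do not say how fragments that fit several genes were counted. Adding the copies to their member lowered the coefficient of variation over the 12 libraries in 48 of 72 members and raised it in 22.

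Rpl17, a protein of the large subunit near the exit of the peptide tunnel, had the largest spread of all members. In SS, Rpl17 was at 71.3, 32.9 and 25.1 FPKM, and in SL at 91.0, 32.0 and 31.5. In LS it was at 68.6, 30.0 and 28.2 FPKM, and in LL at 32.5, 29.6 and 77.5. In every group 1 library stood far above the other two, namely SS replicate 1, SL replicate 1, LS replicate 1 and LL replicate 3. The pseudogene Rpl17-ps10 was lowest in the same 4 libraries, at 48.1, 65.2, 60.5 and 53.2 fragments per 1000000, against 84.8 to 97.7 in the other 8. Rpl17 and its 15 copies together varied with a coefficient of variation of 7.2%, against 51.8% for Rpl17 alone. None of the group differences of Rpl17 passed the test. Rps27, a zinc-finger protein of the small subunit, showed the same kind of split with its retrocopy Rps27rt. Rps27rt ranged from 9.6 to 68.9 fragments per 1000000, and the coefficient of variation of Rps27 was 21.4% alone and 14.98% with its copies.

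**Figure D2:**
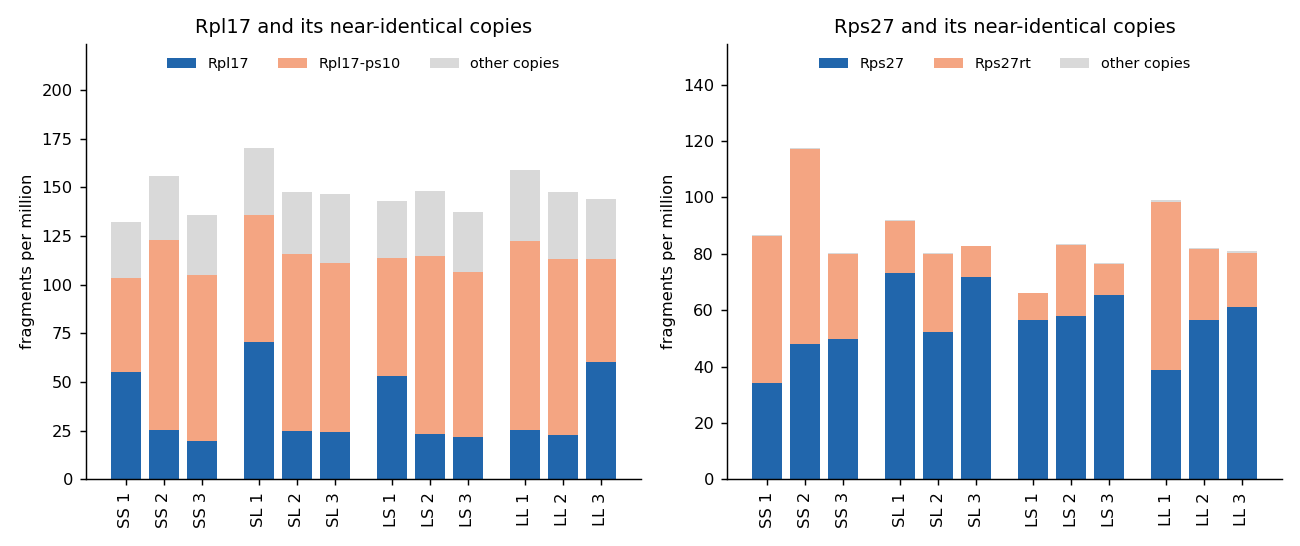
Fragments per 1000000 in each library for Rpl17 (left) and Rps27 (right), with the strongest near-identical copy and the other copies stacked on top. Rpl17 is high where Rpl17-ps10 is low, and the stacked total varies less than Rpl17 alone.

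Most of the other members varied little between libraries. The SD of log2(FPKM + 0.5) over the 12 libraries, groups ignored, had a median of 0.12 over the 81 tested members and 0.14 over all 17687 tested genes. It was under 0.15 in 61 members, a share to be read beside 53.2% of all tested genes. The SE of the log2 fold change of SL against SS, which reflects spread within groups, had a median of 0.086 over the members. That median was 0.098 over all tested genes and 0.083 over the protein-coding ones, so the members were not steadier than protein-coding genes by this measure. Rpl22, which binds RNA and is dispensable in most mouse tissues, was the steadiest, at 36.0 to 42.5 FPKM. Rps24, Rps3, Rpl15 and Rpl5 followed. Among 9 members above 0.3 were Rpl17, Rps27a, Rps29, Rps28, Rpl38 and Rps27.

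SL was set against SS for the effect of LPS on day 14 after saline on day 3. Only Rps6 and Rpl10 rose, both by less than 20%, and no member fell. Limma called 2 of 81 members higher and 0 lower, while it called 7.06% of all 17687 tested genes higher and 3.77% lower. At an unadjusted p under 0.05 there were 9 members, all higher (11.1%), against 22.6% of all genes. Limma voom on recovered fragments called 3 higher, Rps27 being the added one, and 0 lower. The median log2 fold change of the members was 0.05, with 61 positive, beside -0.004 over all genes. It was 0.005 with 44 positive without SL replicate 1, 0.02 without SS replicate 1 or SS replicate 3, 0.09 without SL replicate 2 and 0.13 with 74 positive without SS replicate 2. With the log2 values centred on each library's median it was -0.004 with 39 positive, beside -0.06 over all genes, and neither gene was called. Large-subunit genes had a median of 0.05 with 35 of 49 positive, and small-subunit genes a median of 0.07 with 26 of 32 positive. The 95% interval lay within 0.5 of no change on the log2 scale for 72 of 81 members (88.9%), against 66.6% of all tested genes and 77.7% of the protein-coding ones.

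Rps6, the small-subunit protein that S6 kinase phosphorylates downstream of mTOR (chromosome 4, 86854660 to 86857412, mm10), was at 99.4, 100.1 and 103.8 FPKM in SS and 120.3, 113.7 and 114.3 in SL. The ranges did not overlap. Rps6 rose by a log2 fold change of 0.20 (SE 0.05; limma, Benjamini-Hochberg adjusted p = 0.0216), a 14.7% increase. In LL it was at 117.7, 109.5 and 106.7 FPKM and in LS at 98.8, 104.5 and 107.0, and no other comparison of Rps6 passed the threshold. Rpl10, an X-linked protein that joins the large subunit in a late step of its assembly (chromosome X, 74270812 to 74273135), was at 81.9, 89.3 and 77.2 FPKM in SS. Rpl10 was at 97.8, 94.5 and 97.2 FPKM in SL, above every SS library. The log2 fold change of Rpl10 was 0.22 (SE 0.05, limma adjusted p = 0.0190). Of their 100-base windows, 83.6% in Rps6 and 91.6% in Rpl10 were also found in another gene. Both genes stayed called with copies added to their member, a setting chosen after seeing the data. Both calls ended without SS replicate 1 or SL replicate 1, that of Rps6 also without SS replicate 2, and that of Rpl10 also without SS replicate 3 or SL replicate 3. Their adjusted p was between 0.0588 and 0.0794 in these fits. Without SS replicate 2 the count was 4, made up of Rpl10, Rps4x, Rpl14 and Rpl5.

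The closest members below the threshold were positive too. Rpl10a differed by 0.17 (adjusted p = 0.0782), Rps4x by 0.24 (0.0998), Rpsa, the laminin-receptor homologue of the small subunit, by 0.14 (0.122), and Rplp0, the base of the stalk, by 0.19 (0.125). Rps27 differed by 0.58 (adjusted p = 0.0896), but by -0.14 (adjusted p = 0.625) when its copies were added, a setting chosen after seeing the data. Rps18 and Rpl13a, reference genes of PCR assays, did not pass. Rps18 was at 48.6, 59.7 and 52.4 FPKM in SS and 64.8, 54.0 and 54.6 in SL, a log2 fold change of 0.11 (SE 0.08). Rpl13a was at 10.9 ± 0.16 FPKM in SS and 11.1 ± 0.88 in SL (SD, n = 3), a difference of 0.02 (SE 0.09). Rplp0, often used in the same way, stood at 183.6 ± 12.97 and 210.3 ± 17.5 FPKM.

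**Figure D3:**
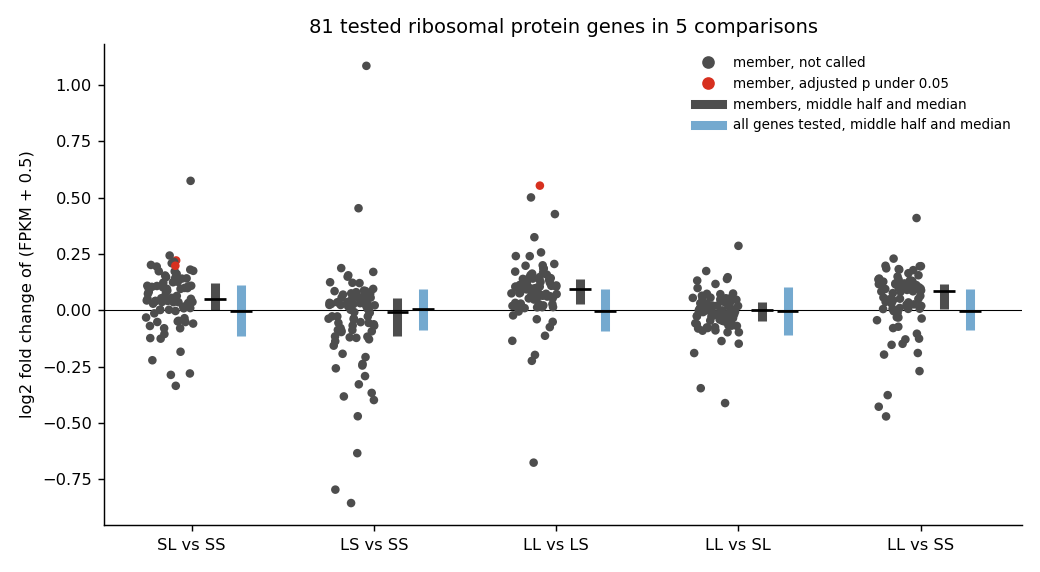
Log2 fold change of (FPKM + 0.5) for 81 ribosomal protein genes in 5 comparisons of groups (points), with the quartiles and median of the members and of all 17687 tested genes (bars with a line). Red marks an adjusted p under 0.05: Rps6 and Rpl10 in SL against SS, and Rps27l in LL against LS.

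Translation control and ribosome assembly genes were followed beside the family in SL against SS. The counts that follow stand beside 7.06% of all tested genes called higher and 3.77% called lower, and nothing particular to a list is read from them. Eif4ebp1, a repressor of cap-dependent initiation that mTOR inactivates, rose by 1.48 in SL (SE 0.18), the only one of 29 initiation factor genes to pass. Of 25 genes of the mTOR pathway with Myc, 3 rose, among them Myc (0.76), an activator of ribosomal protein and rRNA genes, and the kinase Rps6ka1 (0.37). Of 54 ribosome biogenesis factors 3 rose and 0 fell, among them Tcof1 (0.35), which works in rRNA transcription, and Mybbp1a (0.31), a nucleolar protein. Of 25 elongation factor and other TOP mRNA genes 4 rose, among them Pabpc1, the poly(A)-binding protein (0.33), and Snhg1 (0.50). Of 18 RNA polymerase I genes 0 passed in either direction. Of 77 mitochondrial ribosomal protein genes only Mrpl41 rose (0.36), while of 75 nuclear respiratory chain genes 11 fell and 0 rose. The median log2 fold changes of these lists were 0.02 for initiation factors, 0.02 for the mTOR list, 0.06 for biogenesis factors, 0.06 for elongation factors, -0.05 for mitochondrial ribosomal proteins and -0.16 for respiratory chain subunits.

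Markers of other cells moved in the same libraries. Summed markers of pyramidal and granule neurons, the defining neurons of the hippocampus, were at 2122 to 2585 FPKM in all 12. Summed neutrophil markers were at 2.60 to 3.81 FPKM in SS and 123 to 244 in SL, with all 9 tested markers called higher. The 3 tested monocyte markers were higher in SL against SS too, the 5 tested red blood cell markers were lower, and of 10 resting microglia markers 2 were higher and 5 lower. Of all tested genes, 7.06% were called higher and 3.77% lower in SL against SS. Summed choroid plexus markers were at 2176 to 2566 FPKM for SS and 629 to 884 for SL. They were at 21.7 to 1142 FPKM for LS and 2260 to 3212 for LL, and no marker of the neutrophil and choroid plexus lists was at 0 in all libraries. The mean log2 level of the choroid plexus markers was 2.40 in LS replicate 1, but 0.29 and 0.07 in LS replicates 2 and 3. A further fit left out both of these low libraries. In LL against LS, 13 of 15 choroid plexus markers were called higher and 4 of 5 red blood cell markers lower. Of all tested genes, 2.4% were called higher and 0.26% lower in LL against LS. With the mean log2 level of the choroid plexus markers as a covariate, neither Rps6 (0.13, adjusted p = 0.293) nor Rpl10 (0.19, adjusted p = 0.191) was called. The choroid plexus level differs between the groups, so this fit cannot tell its part from that of the injections. The part of the other cells in the results was not tested.

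LS was set against SS for the day 3 LPS injection as seen on day 15. Limma called 0 of 81 members in either direction, beside 0.147% of all tested genes higher and 0.164% lower. At an unadjusted p under 0.05 there were 17 members, 6 higher and 11 lower (21.0%), against 12.6% of all genes, and limma voom called 1, Rpl37, lower. The median log2 fold change was -0.007 with 40 positive, beside 0.004 over all genes. After median centring it was 0.002 with 41 positive, beside 0.01 over all genes. With each library left out in turn the median of the members ran from -0.05 (without SS replicate 1) to 0.05 (without SS replicate 2). The 95% interval lay within 0.5 of no change for 66 members (81.5%), against 72.8% of all genes and 85.2% of the protein-coding ones. The positive side at that level held Rps2 (0.19), Rpl10a (0.17), Rpl15 (0.15) and Rpsa (0.12), with adjusted p from 0.195 to 0.365, besides Rps27a and Rps27. The genes named here and next were chosen after their values were seen.

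In Rps29, Rps28, Rpl38 and Rpl37 the LS libraries lay below the SS libraries without passing the limma test. These 4 were picked for their values. The share of all tested genes separated in this way was not counted, so nothing about the family is read from them. Rps29, Rps28 and Rpl38 have principal mRNAs of 390, 271 and 345 bases, while that of Rpl37 has 835. Rps27, also of 345 bases, had a positive value (0.45). Rps29, a zinc-binding protein of the small subunit, was at 61.9, 127.0 and 80.2 FPKM in SS and 40.3, 55.5 and 47.0 in LS. All LS libraries of Rps29 lay below all SS libraries, but SS replicate 2 stood well above the other SS libraries. The log2 fold change of Rps29 was -0.85 (SE 0.21; adjusted p = 0.116). Rps28 was at 20.2, 36.4 and 28.9 FPKM in SS and 14.3, 17.7 and 15.5 in LS, a difference of -0.80 (SE 0.20; adjusted p = 0.128). Rpl38, a small large-subunit protein that mice need for normal skeletal patterning, was at 86.5, 150.5 and 103.6 FPKM in SS and 65.3, 73.3 and 74.8 in LS (-0.63, SE 0.19; adjusted p = 0.188). Rpl37 was at 52.0, 72.9 and 56.5 FPKM in SS and 37.8, 46.3 and 45.6 in LS, a difference of -0.47 (SE 0.11; adjusted p = 0.108). In all 4 genes SS replicate 2 was the highest library of the 12 and LS replicate 1 the lowest.

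Other short genes were looked at beside the members, with no test between the sets. In the 18 members with a principal mRNA under 500 bases the median log2 fold change of LS against SS was -0.13, with 13 negative. In 141 other protein-coding genes of that length it was -0.11, with 93 negative. In the 19 members of 1000 bases or more it was 0.03. Relative to each gene's mean over the libraries, the short members had a median of 0.23 in SS replicate 2 and -0.21 in LS replicate 1, and the other short genes 0.11 and -0.20 in the same libraries. Over the 81 genes, which are not independent of one another, the correlation of log2 length with the fold change of LS against SS was 0.28 (Pearson) and 0.33 (Spearman). It was 0.31 and 0.39 in SL against SS and 0.31 and 0.24 in LL against SS, which share the SS libraries. In LL against LS it was -0.16 and -0.26, and in LL against SL 0.04 and -0.01. In SL against SS the members under 500 bases had a median of -0.05 and those of 1000 bases or more 0.10. Library preparation and RNA integrity were not measured, and their part in this was not tested.

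**Figure D4:**
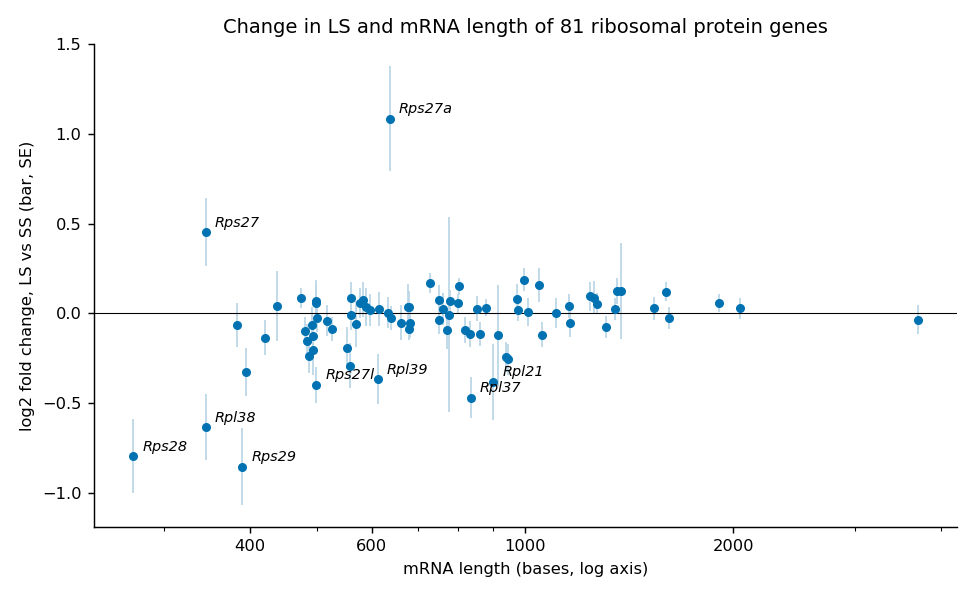
Log2 fold change of LS against SS for 81 ribosomal protein genes (points; bar, SE) by length of the principal mRNA in bases, on a log axis. Rps28, Rpl38 and Rps29, with short mRNAs, have the lowest values, Rps27a the highest, and none passed the threshold.

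Rps27a had values in the other direction that did not pass the test. Rps27a encodes a small-subunit protein made as a fusion with ubiquitin (chromosome 11, 29545846 to 29548109). Its SS libraries were at 16.2, 21.5 and 14.3 FPKM and its SL libraries at 20.1, 18.4 and 17.6. Its LS libraries were at 39.6, 48.3 and 26.2 FPKM and its LL libraries at 17.95, 38.4 and 17.3. All LS libraries lay above the SS and SL libraries, and LL replicate 2 stood with them. The log2 fold change of LS against SS was 1.09 (SE 0.29; adjusted p = 0.148) and 0.88 (SE 0.23; adjusted p = 0.137) with 4 copies added. The gene overlaps Clhc1 on the other strand, and whether counting used strand is not stated in the sources used here.

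LL was compared with LS for the response to LPS on day 14 after LPS on day 3. Rps27l alone rose, and no member fell. Limma called 1 of 81 members higher and 0 lower, beside 2.4% of all tested genes higher and 0.26% lower. The median log2 fold change was 0.09 with 71 positive, beside -0.005 over all genes. After median centring it was 0.07 with 64 positive, beside -0.03 over all genes. The median of the members was 0.05 without LL replicate 1 (58 positive) or LS replicate 1 (62 positive), and 0.15 without LS replicates 2 and 3 together. The 95% interval lay within 0.5 of no change for 69 members (85.2%), against 71.9% of all genes and 83.6% of the protein-coding ones. At an unadjusted p under 0.05 there were 7 members (8.64%), against 13.4% of all genes. Besides Rps27l these included Rps23 (0.24), Rpl10 (0.14), Rpl34 (0.19) and Rpl21 (0.50) with positive values and Rps27a (-0.68), none of which passed after adjustment.

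Rps27l, a paralog of Rps27 that p53 induces (chromosome 9, 66946086 to 66949516), was at 12.1, 12.5 and 14.4 FPKM in LS and 18.9, 18.1 and 20.8 in LL. It was at 16.7, 19.5 and 15.7 FPKM in SS and 22.2, 17.8 and 19.9 in SL. The LS libraries were the 3 lowest of the 12, and LL did not overlap them. Rps27l rose by 0.55 from LS to LL (SE 0.10; limma adjusted p = 0.0136), a 46.8% increase. It shared no 100-base window with another gene. Its principal mRNA has 499 bases. In LL against LS the 18 members under 500 bases had a median of 0.12 with 16 positive. The 141 other protein-coding genes of that length had 0.07 with 91 positive, and the 19 members of 1000 bases or more 0.07 with 17 positive. The part of mRNA length in the value of Rps27l was not tested. The call ended without LS replicate 2 (0.53, adjusted p = 0.0683), without LL replicate 3 (0.50, 0.0723), without LS replicates 2 and 3 together (0.65, 0.139) and with the choroid plexus covariate (0.70, 0.264). Against SS, LS was lower by a log2 value of -0.40 (SE 0.10; adjusted p = 0.12), and SL was higher by 0.20 (SE 0.10; adjusted p = 0.273). The interaction for Rps27l was 0.35 (SE 0.14; adjusted p = 0.226). Of 16 tested p53 target genes 0 were called in LL against LS, and 3 rose in SL against SS, among them Pmaip1 (0.75) and Cdkn1a (0.48), where 7.06% of all tested genes were called higher.

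**Figure D5:**
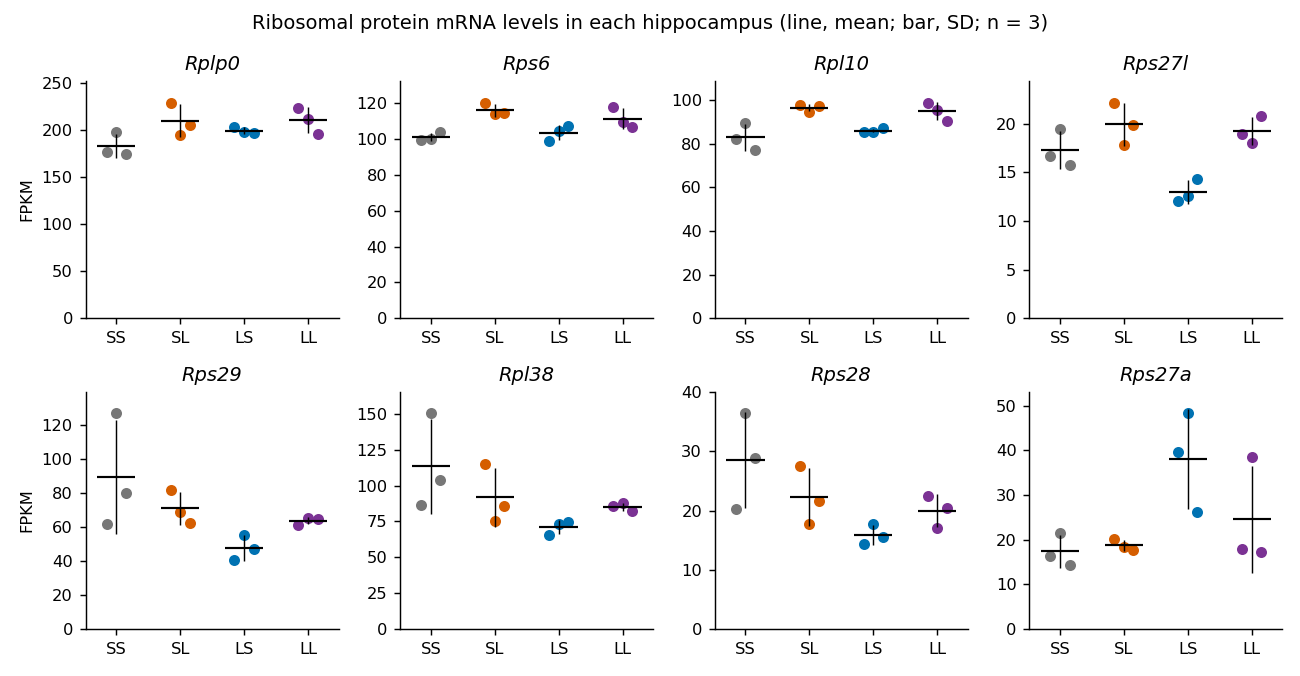
FPKM of 8 ribosomal protein genes in each library by group (points, libraries; line, mean; bar, SD; n = 3), with axes that start at 0. Rps6 and Rpl10 are higher in SL than SS, Rps27l is lowest in LS, and Rps29, Rpl38 and Rps28 have a high SS library, while Rps27a is high in LS and in 1 LL library.

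No member passed the test between LL and SL, both sampled 24 h after LPS. Limma called 0 of 81 in either direction, and limma voom called 0, while 3.32% of all tested genes were called higher and 5.46% lower. At an unadjusted p under 0.05 there were 0 members, against 20.4% of all genes. The median log2 fold change was 0.0002, with 41 positive, and ran from -0.04 (without LL replicate 1) to 0.05 (without SL replicate 1) with each library left out. The 95% interval lay within 0.5 of no change for 73 members (90.1%), against 67.8% of all genes and 78.9% of the protein-coding ones. The members with the largest differences were Rpl7a (-0.41), which was high in SL replicate 1 alone at 55.3 FPKM, and Rps27 (-0.35).

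LL against SS sets both injections against none. Limma called 0 of 81 members and limma voom 0, beside 2.13% of all tested genes called higher and 0.283% lower by limma. At an unadjusted p under 0.05 there were 13 members (16.0%), against 12.4% of all genes. The median log2 fold change was 0.08 with 62 positive, beside -0.003 over all genes. It was 0.03 without SS replicate 1, 0.04 without SS replicate 3 or LL replicate 1 and 0.15 without SS replicate 2. Rpl10, at 98.8, 95.2 and 90.4 FPKM in LL, came closest, with a log2 fold change of 0.20 (SE 0.05; adjusted p = 0.0998). Without SS replicate 2, Rpl10 (0.25, adjusted p = 0.0258) and Rpl27a were called. The interaction, which asks whether the response on day 14 differed with the injection on day 3, was called for 0 of 81 members by limma and by limma voom, beside 2.14% of all genes called positive and 3.19% called negative by limma. At an unadjusted p under 0.05 there were 5 members (6.17%), against 17.1% of all genes. Rps6 had an interaction of -0.09 (SE 0.07) and Rpl10 of -0.08 (SE 0.07). The comparisons with SS share the SS libraries, and those with LS share the LS libraries.

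Paralog pairs were compared as the share of the pair's FPKM held by the paralog. Rpl22l1, which mouse cells raise when Rpl22 is lost, held 27.3% ± 1.19 of its pair with Rpl22 in SS and 24.1% ± 1.78 in SL (SD, n = 3). The share was 23.6% ± 3.00 in LS and 25.4% ± 0.61 in LL. Its level was 14.4 ± 0.48 FPKM in SS and 12.7 ± 1.88 in SL, and no comparison passed the test. Rps27l held 29.4% ± 4.53 of its pair with Rps27 in SS and 24.2% ± 1.87 in SL. That share was 18.4% ± 0.23 in LS and 28.4% ± 4.74 in LL. With the copies of Rps27 added, the difference of LS from SS went from -10.9 to -0.83 percentage points. Rpl7l1 held 14.5% to 15.6% of its pair with Rpl7 in the group means, and Rpl3l under 0.57% of its pair with Rpl3 in every library. Two-sided exact permutation tests of 3 against 3 libraries, 20 in all, cannot go below p = 0.1. The lowest p was 0.1, which adjusted to 0.5 over the 20.

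Fau and Rack1, ribosomal proteins that the naming rule misses, were called in 0 of the comparisons. Fau, which encodes a ubiquitin-like protein fused to a small-subunit protein, had 164.8 ± 10.2 FPKM for SS, 178.0 ± 5.17 for SL, 164.2 ± 12.6 for LS and 170.3 ± 9.64 for LL (SD, n = 3). Rack1, a scaffold on the small subunit, had 29.7 ± 1.73, 31.8 ± 2.44, 30.8 ± 0.96 and 33.0 ± 1.92 FPKM in the same order.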

How the data were processed

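Poly(A) RNA of 12 hippocampi was sequenced, 3 animals per group per the labels, and the spread is between animals. The authors deposited FPKM per gene. HISAT2 2.0.5, featureCounts 1.5.0-p3 and mm10 are named in the submitters' processing notes, and the sources used here do not say how multi-mapping fragments or strand were treated. FPKM times gene length came out whole within 0.05 fragments for 100% of 309337 values above 0, which gave totals of 16979666 to 24105022 fragments and the values for limma voom.

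The 17687 genes that reached 0.5 FPKM in 3 or more libraries were fitted as log2(FPKM + 0.5) in limma 3.58.1 (R 4.3.3) with 4 group means over all 12 libraries, trended empirical Bayes moderation, and tested two-sided. P-values were adjusted over all tested genes by Benjamini-Hochberg, with a threshold of 0.05. Fold changes on this scale understate those of low genes. Other settings were other scalings, pseudocounts, filters, weights, blocks, covariates, tests and left-out libraries. Members and gene lists were chosen with earlier results of these data known. Named members were those called, the 3 highest and lowest, the paralogs, the untested and 5 reference or signalling genes. Others were chosen after their values were seen.

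The principal mRNA was the shortest coding transcript of the best APPRIS rank in GENCODE vM21, where 81 of 83 members have the deposited position. This choice and the addition of copies were made after seeing the data. Start-site sequences came from RefSeq (GRCm38.p6).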

Additional observations from a re-analysis of the deposited data

How the results depend on the processing

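The number of members called higher in SL against SS, 2 as reported, was 0 with median centring, 0 with the choroid plexus covariate, 1 with only these groups in the fit and 0 to 4 with each library left out in turn. The covariate called 1 lower, Rpl31, beside 345 of all 17687 tested genes. For LS against SS, limma voom called 1 lower, beside 120 of all genes. For LL against LS, 1 as reported, the count higher was 2 with the covariate, beside 34 of all genes. Leaving out each library gave 0 to 1. For LL against SL the covariate called 3 higher, beside 261 of all genes. For LL against SS, quantile normalization called 2 higher and library weights 1, beside 332 and 494 of all genes. Leaving out each library gave 0 to 2 there. For the interaction, the covariate called 2 positive, beside 25 of all genes. With the covariate the median log2 fold change of the members was -0.02 in SL against SS and -0.16 in LS against SS. It was 0.21 in LL against LS, 0.08 in LL against SL, 0.09 in LL against SS and 0.25 in the interaction. The choroid plexus level differs between the groups, so in this fit its part and that of the injections cannot be told apart. The cause of the moves under any of these settings was not tested.

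With copies added, chosen after seeing the data, Rps27 in SL against SS went from 0.58 to -0.14, and the differences in the Rps27l share became 3.53 (SL against SS), -0.83 (LS against SS), 3.55 (LL against LS) and -0.816 (LL against SL) percentage points. With the replicate number as a block the counts stayed at 2 higher in SL against SS and 1 in LL against LS, with 0 elsewhere. Same-numbered libraries had correlations of -0.07 to 0.10, so the numbers were not taken as a pairing. With 3 animals per group, small differences may be missed. FPKM cannot separate a member from its near-identical copies.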
